A study of Mus musculus with 18 samples.

Results

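The aminoacyl-tRNA synthetases are the enzymes that join each amino acid to its transfer RNA, and their genes were followed here through the injury response of cultured sensory neurons. The members were the protein-coding genes whose GENCODE vM21 symbol is a synthetase name made of the letter of an amino acid and "ars", with or without a closing 1, 2, l or l2, and the genes Farsa, Farsb and Fars2. The pattern found 37 symbols among the 47643 genes counted, and 36 were kept. Lars2, the mitochondrial leucyl enzyme, was left out because its counts follow residual ribosomal RNA. The 19 genes whose names do not end in 2 made up the cytosolic set, and the 17 genes whose names end in 2 made up the mitochondrial set. Apart from the counts of Lars2, the choice used symbols and no measured value, but it was made with earlier results of these data known. All 36 passed the filter on low counts, which kept 13771 genes with more than 1 CPM in at least 3 libraries. CPM is the count scaled to a common library size.

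The samples were dorsal root ganglia (DRG) of CD-1 mouse embryos at e13.5, grown as spots (eDRG spot culture) in the presence of FDU, a mitotic inhibitor that removes dividing cells. The control was an uninjured culture collected at DIV7, that is, on day 7 in vitro. The injured cultures had their axons severed with a blade and were collected 1, 3, 8, 16 or 24 h post injury (HPI), with 3 replicates in each of the 6 groups. The labels place the collection of the injured cultures on DIV7, whereas the study's methods place the injury on that day. No uninjured culture was collected beside each later time point, so injury and time in culture cannot be told apart. All groups share the strain, the embryonic stage and FDU, so the cultures model embryonic neurons without the blood cells, Schwann cells and target tissue that surround an injured nerve in an animal. No label ties the replicates to separate animals or cultures, so the p-values measure the spread between these libraries, which may be technical. The replicate number was used as a batch because the study corrected for batch. After the mean of each group was subtracted, libraries with the same number deviated together, with a mean correlation of 0.619 over 45 pairs. The mean of -0.308 over the 90 other pairs largely follows from that subtraction and adds no separate evidence.

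Counts on genes ran from 9478891 to 23082327 per library, with a further 25.2% to 33.2% of all counts on no gene. The 8 sensory neuron markers examined were all present and summed to between 9959 and 12000 CPM in each library. The markers of fibroblasts, endothelial cells and myeloid cells summed to at most 9.98, 1.42 and 6.84 CPM. The fibroblast markers Lum and Pdgfra, the endothelial markers Cldn5, Cdh5 and Kdr and the myeloid markers Ptprc and Csf1r were at 0 in at least 1 library. The other markers of these lists, Col1a1, Col1a2, Dcn, Pecam1, Aif1 and Cd68, were counted in every library, at no more than 5.72 CPM (Col1a2). Of the 7 glial markers only S100b, which sensory neurons also express, was above 6 CPM. A list of genes that pick up residual ribosomal RNA took between 0.689% and 4.59% of the counts, with the highest share in 16 HPI replicate 1. Genes of the mitochondrial genome took between 14.9% and 24.1%.

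Each synthetase recognises a single amino acid and the transfer RNAs that carry it. Protein synthesis in the cytosol and in mitochondria mostly relies on separate enzymes encoded by separate nuclear genes. Gars and Kars are exceptions whose products serve both compartments, and Tarsl2 encodes a cytosolic threonyl enzyme although its name places it in the mitochondrial set. Several cytosolic enzymes sit together in the multisynthetase complex, which is held by scaffold proteins such as Aimp1. Mutations of human GARS, YARS, AARS, HARS and WARS are known causes of inherited peripheral neuropathy. Many cytosolic synthetase genes are textbook targets of ATF4, the transcription factor of the integrated stress response, which reads composite sites of the letters TGATGNAA in their promoters.

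The promoters of the members were read from RefSeq on GRCm38.p6, from 250 bases before to 50 bases after the start of each gene. An entry was found for 26 of the 36 members, 12 cytosolic and 14 mitochondrial. The letters TGATGNAA, where N is any base, were searched on both strands. They occurred in 5 of the 12 cytosolic promoters, those of Aars, Gars, Iars, Tars and Yars, and in 0 of the 14 mitochondrial ones. Of all 27025 promoters in the table, 4.06% held them. The cyclic AMP response element, TGACGTCA, was in none of the 26 member promoters and in 1.88% of all promoters. The letters CCAAT, searched in the same way, were in 7 cytosolic and 6 mitochondrial promoters and in 37.9% of all promoters. A match is a run of letters and not a measured binding site. The promoters below are those of the called genes that had an entry (Aars, Tars, Iars, Sars, Mars and Mars2) and that of Gars, the member with the highest level, with the match to TGATGNAA in capitals and each sequence read 5′ to 3′ on the strand of its gene. The promoters of Sars, Mars and Mars2 hold no match, and no entry was found for Rars and Vars, which were also called.
Aars: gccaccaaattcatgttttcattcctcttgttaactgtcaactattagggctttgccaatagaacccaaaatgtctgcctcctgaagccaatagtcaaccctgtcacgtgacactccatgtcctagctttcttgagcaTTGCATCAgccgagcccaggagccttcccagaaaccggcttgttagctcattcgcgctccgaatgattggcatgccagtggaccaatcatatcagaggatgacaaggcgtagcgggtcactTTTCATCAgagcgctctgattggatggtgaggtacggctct
Tars: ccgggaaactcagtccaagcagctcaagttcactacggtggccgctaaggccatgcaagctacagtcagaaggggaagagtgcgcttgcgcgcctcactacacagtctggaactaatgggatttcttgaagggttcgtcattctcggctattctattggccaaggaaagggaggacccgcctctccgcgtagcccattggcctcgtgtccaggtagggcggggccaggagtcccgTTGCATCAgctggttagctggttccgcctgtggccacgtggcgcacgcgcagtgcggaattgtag
Iars: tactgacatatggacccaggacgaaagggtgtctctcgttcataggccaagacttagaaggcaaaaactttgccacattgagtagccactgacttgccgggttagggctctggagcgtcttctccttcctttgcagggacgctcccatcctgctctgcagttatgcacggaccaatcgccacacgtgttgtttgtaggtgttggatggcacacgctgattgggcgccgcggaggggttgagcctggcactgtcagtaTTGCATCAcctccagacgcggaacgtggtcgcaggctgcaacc
Gars: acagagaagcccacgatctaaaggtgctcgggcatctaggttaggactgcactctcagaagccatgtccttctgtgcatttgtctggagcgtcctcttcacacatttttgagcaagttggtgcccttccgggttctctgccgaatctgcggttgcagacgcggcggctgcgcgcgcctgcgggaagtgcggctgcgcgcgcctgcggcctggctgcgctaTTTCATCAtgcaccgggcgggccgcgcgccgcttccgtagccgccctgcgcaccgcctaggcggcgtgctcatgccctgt
Sars: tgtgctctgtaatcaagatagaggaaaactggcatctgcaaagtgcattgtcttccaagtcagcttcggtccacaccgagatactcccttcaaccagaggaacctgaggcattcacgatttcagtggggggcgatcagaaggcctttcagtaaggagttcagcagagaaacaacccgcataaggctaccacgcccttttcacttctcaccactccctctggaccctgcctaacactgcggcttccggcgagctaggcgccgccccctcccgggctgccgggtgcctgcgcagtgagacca
Mars: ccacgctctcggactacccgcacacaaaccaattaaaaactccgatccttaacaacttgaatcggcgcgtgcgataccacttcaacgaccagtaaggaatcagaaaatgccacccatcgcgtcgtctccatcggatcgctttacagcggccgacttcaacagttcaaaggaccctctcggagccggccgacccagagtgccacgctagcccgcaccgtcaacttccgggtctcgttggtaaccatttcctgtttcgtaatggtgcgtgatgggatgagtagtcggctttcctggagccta
Mars2: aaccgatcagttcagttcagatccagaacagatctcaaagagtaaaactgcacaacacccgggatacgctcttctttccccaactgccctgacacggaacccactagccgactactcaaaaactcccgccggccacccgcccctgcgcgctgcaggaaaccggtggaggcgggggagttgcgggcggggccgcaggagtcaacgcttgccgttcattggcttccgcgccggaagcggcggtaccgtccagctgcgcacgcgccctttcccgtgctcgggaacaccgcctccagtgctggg

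The Aars promoter lies at chr8:111033592-111033891 on the plus strand and holds 2 matches, which begin at positions -112 and 9 from the RefSeq start. That start lies 698 bases inside the GENCODE gene, whereas those of the other promoters shown lie within 50 bases of the GENCODE start. The Tars promoter lies at chr15:11399609-11399908 on the minus strand, with a match at position -15. The Iars promoter lies at chr13:49681880-49682179 on the plus strand, with a match at position 7. The Gars promoter lies at chr6:55037751-55038050 on the plus strand, with a match at position -30. The promoters of Sars and Mars lie at chr3:108445210-108445509 and chr10:127311737-127312036 on the minus strand, and that of Mars2 at chr1:55236927-55237226 on the plus strand.

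In uninjured neurons the cytosolic synthetase genes were expressed far above the mitochondrial ones. Levels were compared between genes as RPKM, which are CPM divided by the total exon length of the gene in kilobases. The median of the 19 cytosolic genes was 39.4 RPKM, at percentile 92.7 of all tested genes, and that of the 17 mitochondrial genes was 3.76 RPKM, at percentile 46.3. The median of all tested genes was 4.36 RPKM. Gars, for glycine, was the highest member at 176 ± 17.5 RPKM (SD, n = 3 here and below). Nars, for asparagine, followed at 123 ± 10.6 RPKM, and the 3 control values of Gars and Nars did not overlap.

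Below them, Wars for tryptophan had 79.8 ± 14.0 RPKM and Sars for serine had 78.2 ± 4.76 RPKM, and these neighbours overlapped. Hars for histidine had 68.9 ± 5.35 RPKM and Aars for alanine had 53.0 ± 3.99 RPKM. Lars for leucine, Farsb and Rars for arginine had 46.2 ± 6.54, 41.9 ± 5.40 and 41.8 ± 4.76 RPKM. Iars for isoleucine, Yars for tyrosine and Mars for methionine had 39.4 ± 1.28, 37.3 ± 1.52 and 32.1 ± 1.97 RPKM. The run from Aars to Yars formed a chain in which each gene overlapped the next. Vars for valine had 23.2 ± 4.84 RPKM, Dars for aspartate 20.4 ± 0.663 RPKM, Tars for threonine 20.1 ± 1.35 RPKM and Kars for lysine 20.1 ± 0.544 RPKM. The lowest cytosolic genes were Cars for cysteine at 15.2 ± 2.16 RPKM, Farsa at 9.72 ± 0.775 RPKM and Qars for glutamine at 6.63 ± 0.476 RPKM. Farsa and Farsb encode the subunits of the phenylalanyl enzyme, so their products work together although their levels differed.

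The highest mitochondrial gene was Rars2 at 10.2 ± 0.324 RPKM, followed by Iars2 at 8.74 ± 0.457 RPKM. By their means, Rars2 was above Farsa and Qars and Iars2 was above Qars, while Rars2 and Iars2 each overlapped Farsa. Tarsl2 had 5.95 ± 0.718 RPKM, Tars2 4.83 ± 0.170 RPKM and Vars2 4.24 ± 0.636 RPKM. Hars2, Yars2, Aars2, Fars2, Sars2 and Mars2 lay between 3.95 and 3.06 RPKM, each overlapping its neighbour in that order. Wars2 had 2.38 ± 0.0979 RPKM and Nars2 had 1.88 ± 0.162 RPKM. Ears2, Pars2 and Cars2 were the lowest, at 1.77 ± 0.115, 1.63 ± 0.223 and 1.503 ± 0.268 RPKM. The lowest count of any member in any library was 41, for Pars2.

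**Figure D1:**
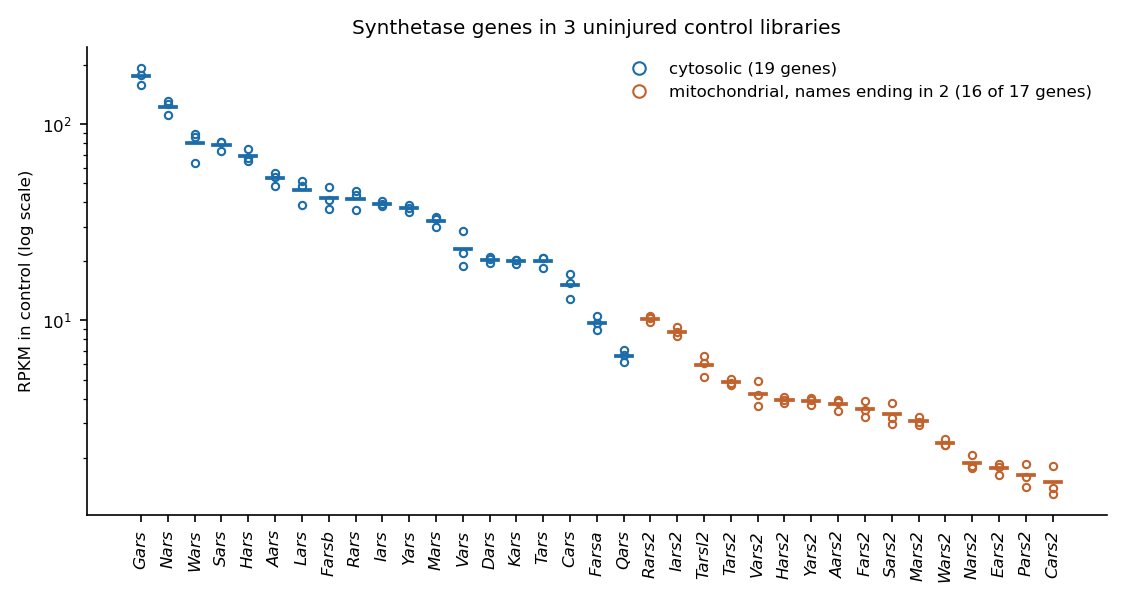
Level of each synthetase gene in the 3 uninjured control libraries, as RPKM on a log axis, with open circles for the libraries and a bar for their mean, for 19 cytosolic and 16 of the 17 mitochondrial genes. The cytosolic genes run from 176 RPKM for Gars to 6.63 RPKM for Qars, and the mitochondrial genes from 10.2 RPKM for Rars2 to 1.503 RPKM for Cars2.

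The same order held amino acid by amino acid. Of 16 pairs of a cytosolic and a mitochondrial gene for the same amino acid, covering 14 amino acids, all 16 had the cytosolic gene higher in all 18 libraries. The pair of Tars with Tarsl2 is among them by name only, since Tarsl2 encodes a cytosolic enzyme. In control, the RPKM of Nars was 65.8 ± 10.6 times that of Nars2, the widest pair. Wars was 33.7 ± 7.09 times Wars2, Sars was 23.7 ± 2.06 times Sars2 and Hars was 17.5 ± 1.93 times Hars2. Those for alanine, methionine, cysteine and tyrosine lay between 14.2 and 9.58 times. The pairs for valine, isoleucine, threonine with Tars2 and arginine lay between 5.47 and 4.09 times. The narrowest pairs were Tars with Tarsl2 at 3.43 ± 0.610 times and Farsa with Fars2 at 2.75 ± 0.252 times. Total exon length enters each ratio, and at 11294 bases that of Mars2 is the longest of the members.

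Summed over the set, the cytosolic genes came to 843, 997 and 957 RPKM in control replicates 1, 2 and 3. The mitochondrial genes came to 70.5, 69.5 and 68.4 RPKM in the same libraries. Over all 18 libraries the cytosolic sum ran from 843 to 1048 RPKM and the mitochondrial sum from 66.6 to 71.7 RPKM. The ratio of the sums ran from 12.0 to 15.4 and was lowest in replicate 1 of every group. With Tarsl2 moved to the cytosolic set, the ratio ran from 13.3 to 16.9. At 8 HPI the cytosolic sum was 912, 1012 and 1048 RPKM in replicates 1, 3 and 2, each above its own control replicate, yet the groups overlapped. In bulk RNA such as this, a change in the number of cells of a type and a change in RNA per cell cannot be told apart.

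**Figure D2:**
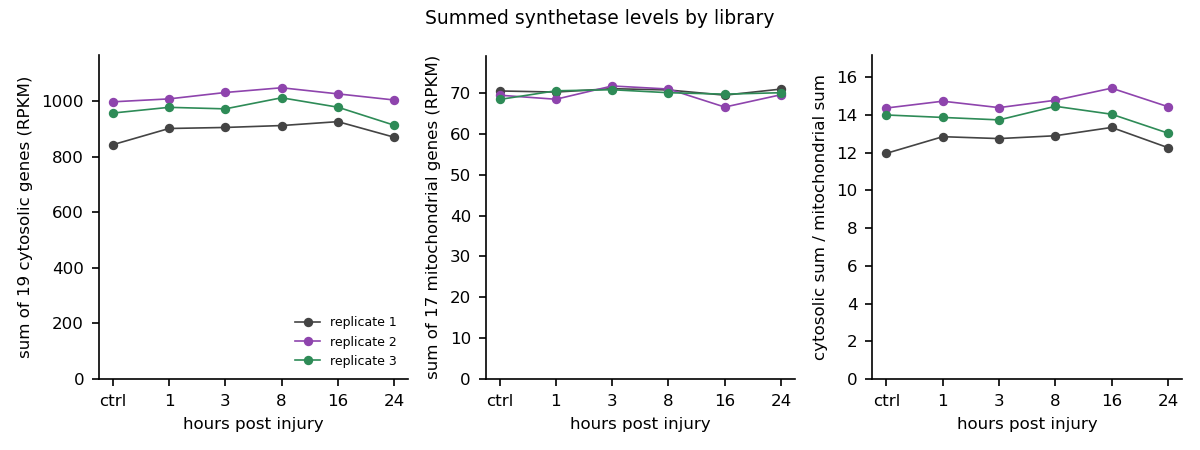
Summed RPKM of the 19 cytosolic genes, summed RPKM of the 17 mitochondrial genes, and the ratio of these sums, for each library by hours post injury (ctrl is uninjured), with a line for each replicate number. Replicate 1 has the lowest cytosolic sum and the lowest ratio in all 6 groups, and the mitochondrial sum stays between 66.6 and 71.7 RPKM.

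Synthetase mRNA levels moved little over the whole experiment. The highest of the 18 library values was, in the median, 1.29 times the lowest for the cytosolic genes and 1.31 times for the mitochondrial genes, against 1.57 times for all tested genes. Counting error widens this ratio at low counts, and the comparison was not matched for level. Kars was the steadiest member at 1.19 times, and Vars the least steady at 1.76 times. Much of the variation in the cytosolic genes followed the replicate number. Batch took a median of 49.3% of the variance of the 19 cytosolic genes and time after injury 26.5%, and batch took more than time in 14 of them. In the mitochondrial set batch took a median of 15.9% and time 38.3%, and batch took more in 5 of 17 genes. Over all tested genes the medians were 34.3% and 31.0%, and batch took more in 51.4%. These are raw shares of the sum of squares. Time has 6 groups and batch 3, so random spread alone gives time a larger share than batch. The shares are not corrected for this, so a larger share for time, as in the mitochondrial set, is not by itself a response to injury. Wars, Nars and Vars had 90.1%, 87.3% and 83.7% of their variance between batches, with Wars lying on average 0.23 lower on the log2 scale in replicate 1. Replicate 1 also had the highest share of counts on the mitochondrial genome in all groups but 3 HPI, and whether that share bears on the cytosolic levels was not tested.

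Each time point was compared with the same uninjured control to ask when after axon injury the levels of tRNA charging genes differ from it. A gene was called higher or lower when its adjusted p was under 0.05 in the edgeR quasi-likelihood fit, adjusted by Benjamini-Hochberg over all 13771 genes. At 1 HPI and 3 HPI, 0 of the 36 members were called. At an unadjusted p under 0.05 there were 3 members at 1 HPI (Dars, Wars and Yars) and 3 at 3 HPI (Dars, Farsa and Tars), all with positive log2 fold changes between 0.09 and 0.15. DESeq2 called 0 of the 19 cytosolic genes at either time and 0 of the mitochondrial genes for which it gave an adjusted p, which were 5 of 17 at 1 HPI and 7 of 17 at 3 HPI. Of all tested genes, 0.116% were called higher and 0.269% lower at 1 HPI, and 0.0654% higher and 0.203% lower at 3 HPI, while 12.8% and 14.2% had an unadjusted p under 0.05.

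At 8 HPI, 3 cytosolic genes rose, Tars, Rars and Aars, and 0 of the 17 mitochondrial genes were called by edgeR or by DESeq2, with 1 of them, Mars2, at an unadjusted p under 0.05. The called cytosolic genes were 15.8% of their set, where 3.83% of all tested genes were called higher and 3.96% lower. At an unadjusted p under 0.05, 10 of the 19 cytosolic genes were reached, all 10 with positive values, and 10.9% of all tested genes reached it in that direction. The median log2 fold change was 0.10 for the cytosolic set and -0.01 for the mitochondrial set, and that of all tested genes was within 0.01 of 0. Within the batches, the cytosolic median was 0.07, 0.07 and 0.08.

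At 16 HPI the called genes were Rars, Sars, Tars and Aars of the cytosolic set and Mars2 of the mitochondrial set, all higher. That was 21.1% and 5.88% of the sets, and 10.6% of all tested genes were called higher and 11.5% lower. The medians were 0.05 for the cytosolic and -0.04 for the mitochondrial set. At 24 HPI Iars, Mars and Vars were called lower and Sars higher, and 0 mitochondrial genes were called by edgeR or by DESeq2, of which 3 had an unadjusted p under 0.05. Such an unadjusted p was reached by 3910 of the 13771 tested genes at 24 HPI. Of all tested genes 6.05% were called higher and 9.07% lower, beside 5.26% and 15.8% of the cytosolic set. The medians were -0.01 and -0.02, but within the 3 batches the mitochondrial median was positive, between 0.03 and 0.05. Some marker sums moved at the same time. The 8 sensory neuron markers summed to between 11150 and 11690 CPM in control and between 10430 and 10870 CPM at 24 HPI. The 4 cell division markers summed to between 2.29 and 3.14 CPM in control and between 3.47 and 6.07 CPM at 24 HPI, and the 4 myeloid markers to between 3.38 and 4.89 and between 5.22 and 6.84 CPM. At 16 HPI the myeloid markers summed to between 5.25 and 5.79 CPM, also above control. The sensory neuron markers summed to between 9959 and 11270 CPM there, overlapping control, with a median of 10780 against 11630 CPM. The cell division markers at 16 HPI overlapped control. The part of these shifts in the 16 and 24 HPI values of the synthetase and transporter genes was not tested.

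Each of these 12 calls had the same direction in all 3 batches. With the replicate number left out of the model, 1 of them remained, that of Mars2 at 16 HPI (adjusted p = 0.0255). None of the 36 members passed the 2-fold limit that the study applied, which 0.029%, 0.0218%, 0.53%, 1.45% and 0.821% of all tested genes passed in either direction at 1, 3, 8, 16 and 24 HPI. The 95% intervals of the fold changes against control lay between 0.792 and 1.29 for every cytosolic gene at every time point. For the mitochondrial genes they lay between 0.771 and 1.42, and the upper bound was that of Pars2, the member with the fewest counts.

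**Figure D3:**
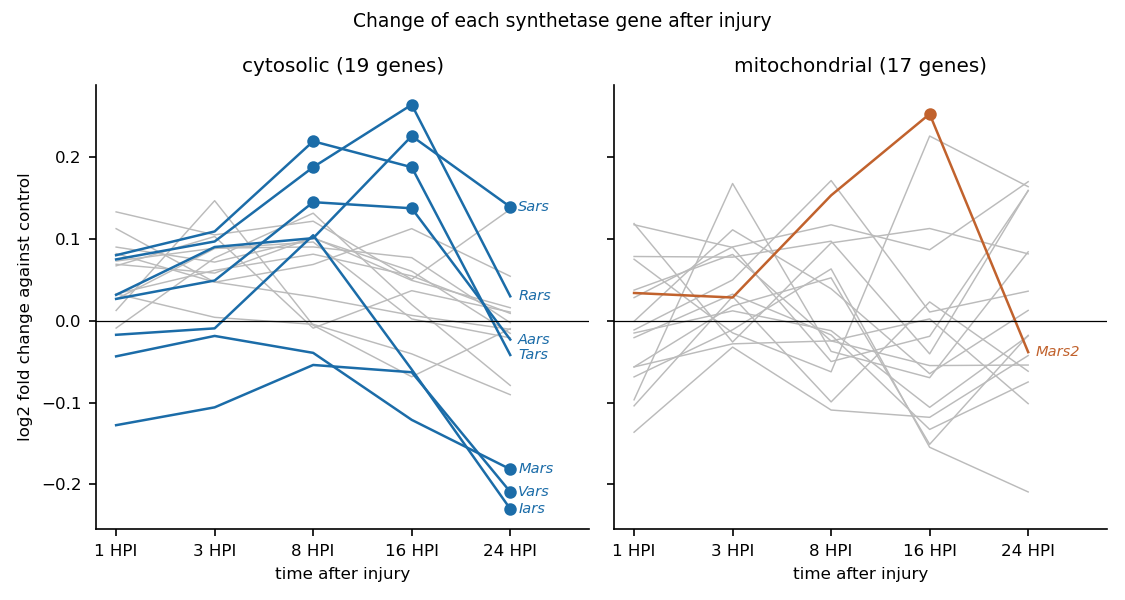
Log2 fold change of each synthetase gene against control at 1, 3, 8, 16 and 24 HPI, on an axis with equal steps between time points. Coloured lines are the genes called at 1 or more time points, filled circles mark an adjusted p under 0.05, and grey lines are the other members. Tars and Rars peak at 8 and 16 HPI, Iars, Mars and Vars are lowest at 24 HPI, and all values lie between -0.23 and 0.26.

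Tars, the threonyl enzyme of the cytosol (chromosome 15, from 11382301 to 11399665 on GRCm38), gave the earliest firm change. Its level was 109, 123 and 123 CPM in control, 112, 134 and 131 CPM at 1 HPI and 114, 137 and 133 CPM at 3 HPI, in replicates 1, 2 and 3. It was 131, 143 and 139 CPM at 8 HPI, 125, 142 and 138 CPM at 16 HPI and 111, 122 and 113 CPM at 24 HPI. All 8 and 16 HPI libraries were above all control libraries, and the 24 HPI libraries were back among the controls. The log2 fold change was 0.22 ± 0.05 (SE, adjusted p = 0.00409) at 8 HPI and 0.19 ± 0.05 (adjusted p = 0.00383) at 16 HPI. From 16 to 24 HPI it fell by 0.23 on the log2 scale (adjusted p = 0.00174). Its mitochondrial partner Tars2 ranged from 29.7 to 36.5 CPM over the 18 libraries, with log2 fold changes of -0.01 at 8 HPI and -0.11 at 16 HPI (adjusted p = 0.947 and 0.277). Tarsl2 ranged from 34.9 to 46.5 CPM, with 0.04 and -0.06 at the same times (adjusted p = 0.772 and 0.503).

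Rars, which charges arginine and belongs to the multisynthetase complex (chromosome 11, from 35808381 to 35834506), had the widest rise. It was at 118, 147 and 140 CPM in control, 132, 153 and 140 CPM at 1 HPI and 130, 157 and 145 CPM at 3 HPI. It reached 139, 162 and 159 CPM at 8 HPI and 156, 171 and 157 CPM at 16 HPI, before 127, 152 and 134 CPM at 24 HPI. The 16 HPI libraries were all above the controls, whereas the 8 HPI libraries overlapped them through replicate 1. Against control, the log2 fold change of Rars was 0.19 ± 0.05 (adjusted p = 0.0156) at 8 HPI and 0.26 ± 0.05 (adjusted p = 0.000208) at 16 HPI, and the level fell by 0.23 on the log2 scale from 16 to 24 HPI (adjusted p = 0.00202). Without control replicate 1 or 8 HPI replicate 3 the 8 HPI call was lost, with log2 fold changes of 0.15 to 0.16 and adjusted p of 0.0909 to 0.118. Rars2 ranged from 26.4 to 32.5 CPM, with log2 fold changes of 0.10, 0.11 and 0.08 at 8, 16 and 24 HPI (adjusted p = 0.458, 0.255 and 0.45).

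Sars, which charges serine (chromosome 3, from 108424865 to 108445209), was first called at 16 HPI and was called again at 24 HPI. Its control libraries had 374, 417 and 415 CPM, those of 1 HPI 387, 426 and 419 CPM, and those of 3 HPI 391, 451 and 442 CPM. It had 384, 459 and 453 CPM at 8 HPI, 447, 489 and 473 CPM at 16 HPI and 409, 476 and 444 CPM at 24 HPI. The 16 HPI libraries did not overlap the controls, and those of 24 HPI did, through replicate 1. Its log2 fold change was 0.10 at 8 HPI (adjusted p = 0.176), 0.23 ± 0.04 at 16 HPI (adjusted p = 0.000488) and 0.14 ± 0.04 at 24 HPI (adjusted p = 0.0329). The 24 HPI call was lost without any of control replicates 1, 2 and 3 or 24 HPI replicates 1 and 2, at log2 fold changes of 0.12 to 0.15 and adjusted p of 0.0672 to 0.135. Sars2 had between 9.47 and 12.6 CPM and log2 fold changes of -0.02, -0.05 and -0.05 (adjusted p = 0.93, 0.771 and 0.777).

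Aars, which charges alanine (chromosome 8, from 111033144 to 111057664), rose least of the 4. It had 451, 524 and 500.2 CPM in control, 471, 515 and 516 CPM at 1 HPI and 481, 528 and 516 CPM at 3 HPI. It had 506, 571 and 553 CPM at 8 HPI, 512, 574 and 536 CPM at 16 HPI and 467, 513 and 471 CPM at 24 HPI. Replicate 1 of 8 and 16 HPI lay within the control range and the other libraries of these times above it. This gave a log2 fold change of 0.15 ± 0.04 at 8 HPI (adjusted p = 0.0408) and 0.14 ± 0.04 at 16 HPI (adjusted p = 0.0246), and from 16 to 24 HPI the level fell by 0.16 on the log2 scale (adjusted p = 0.0191). The 8 HPI call was lost without any single control or 8 HPI library and also without 1 HPI replicate 1 or 2, at log2 fold changes of 0.12 to 0.15 and adjusted p of 0.0548 to 0.167. The 16 HPI call was lost without control replicate 1 or 3 or 16 HPI replicate 1 or 2, at 0.12 to 0.15 (adjusted p = 0.0533 to 0.109). The step to 24 HPI was lost without 16 HPI replicate 1 or 2 or 24 HPI replicate 3, at -0.16 to -0.13 (adjusted p = 0.0556 to 0.147). Aars shares 14.3% of its exon length with Exosc6 on the same strand. Exosc6 is not among the genes counted, so the Aars values may include reads of Exosc6. Aars2 lay between 15.4 and 19.9 CPM, with log2 fold changes of -0.11 at 8 HPI and -0.12 at 16 HPI (adjusted p = 0.495 and 0.342).

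Mars2, the methionyl enzyme of mitochondria, which also charges the initiator tRNA there, was the member of its set that changed (chromosome 1, from 55237177 to 55248470). Its control libraries had 33.2, 36.4 and 34.1 CPM, those of 1 HPI 34.7, 34.4 and 36.9 CPM, and those of 3 HPI 34.5, 35.8 and 35.1 CPM. It had 38.5, 38.02 and 38.6 CPM at 8 HPI, 41.9, 39.5 and 41.9 CPM at 16 HPI and 34.1, 31.5 and 35.3 CPM at 24 HPI. Every 16 HPI library was above every control library and every 24 HPI library. Against control, Mars2 was higher by 0.25 ± 0.06 on the log2 scale at 16 HPI (adjusted p = 0.00332), and from 16 to 24 HPI it fell by 0.29 on the log2 scale (adjusted p = 0.00238). These Mars2 calls remained in each of 25 alternatives tried, and the replicate number took 2.72% of its variance against 83.2% for time.

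Mars, the cytosolic methionyl enzyme and a subunit of the multisynthetase complex (chromosome 10, from 127296221 to 127311786), went the other way. It had 102, 115 and 112 CPM in control, 101, 109 and 109 CPM at 1 HPI and 107, 110 and 108 CPM at 3 HPI. It had 98.8, 112 and 110 CPM at 8 HPI, 98.1, 107 and 98.1 CPM at 16 HPI and 89.3, 98.1 and 103 CPM at 24 HPI. The 24 HPI libraries of replicates 1 and 2 were below all controls, and that of replicate 3 was just inside their range. The log2 fold change was -0.12 at 16 HPI (adjusted p = 0.0705) and -0.18 ± 0.05 at 24 HPI (adjusted p = 0.0101). The 24 HPI call was lost without control replicate 2 or 24 HPI replicate 1 or 2, at -0.17 to -0.16 (adjusted p = 0.0543 to 0.0609). Mars and Ddit3, the gene of the stress factor CHOP, share 68 bases of exon on opposite strands, which is 2.0% of the Mars exon length.

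Iars, which charges isoleucine and also belongs to the complex (chromosome 13, from 49682100 to 49734267), had the lowest value at 24 HPI. It had 202, 215 and 207 CPM in control, 192, 210 and 214 CPM at 1 HPI and 201, 211 and 207 CPM at 3 HPI. It had 215, 229 and 226 CPM at 8 HPI, 204, 191 and 203 CPM at 16 HPI and 166, 181 and 185 CPM at 24 HPI. All 24 HPI libraries were below all libraries of the other 5 groups. The log2 fold change was 0.10 at 8 HPI (adjusted p = 0.183) and -0.23 ± 0.05 at 24 HPI (adjusted p = 0.00132). It fell by 0.16 on the log2 scale from 8 to 16 HPI (adjusted p = 0.017) and by 0.17 from 16 to 24 HPI (adjusted p = 0.019). The first step was lost without 8 HPI replicate 1 or 2 or 16 HPI replicate 2, at -0.17 to -0.12 (adjusted p = 0.0508 to 0.131). The second was lost without 16 HPI replicate 1 or 24 HPI replicate 1, at -0.14 to -0.12 (adjusted p = 0.111 to 0.203). Iars2 ranged from 68.4 to 85.2 CPM, with log2 fold changes of -0.13 at 16 HPI and -0.07 at 24 HPI (adjusted p = 0.0587 and 0.338), and 22.9% of its exon length lies opposite Rab3gap2.

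Vars, which charges valine (chromosome 17, from 35000987 to 35016322), was the least even of the called genes. It had 106, 124 and 159 CPM in control, 97.9, 112 and 147 CPM at 1 HPI and 109, 110 and 142 CPM at 3 HPI. It had 105, 119 and 150.3 CPM at 8 HPI, 96.7, 131 and 144 CPM at 16 HPI and 90.6, 119 and 126 CPM at 24 HPI. Replicate 1 was the lowest and replicate 3 the highest in all 6 groups, and the replicates lay further apart than the group means did. The log2 fold change at 24 HPI was -0.21 ± 0.06 (adjusted p = 0.0238), with values of -0.23, -0.06 and -0.34 in the 3 batches. That call was lost without control replicate 1 or 3 or 24 HPI replicate 1 or 3, at -0.21 to -0.16 (adjusted p = 0.0546 to 0.162). Vars2 ranged from 17.98 to 26.8 CPM and had the same log2 fold change of -0.21 at 24 HPI with a wider error (SE 0.08, adjusted p = 0.08).

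**Figure D4:**
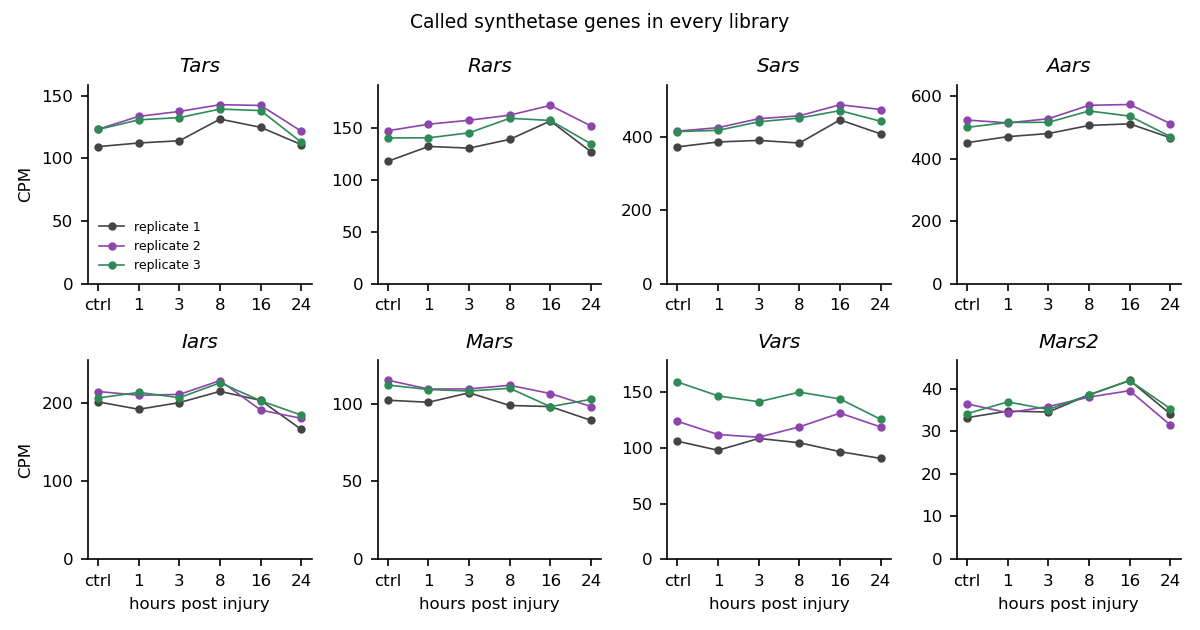
CPM of the 8 called synthetase genes in every library by hours post injury (ctrl is uninjured), on axes that start at 0, with a line for each replicate number. Tars, Rars, Sars, Aars and Mars2 are highest at 8 or 16 HPI, and Iars, Mars and Vars are lowest at 24 HPI.

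The time points were also compared in steps. From 3 to 8 HPI 0 members were called by edgeR or by DESeq2, and 5 had an unadjusted p under 0.05. Of all tested genes 1.74% were called higher, 0.581% were called lower and 13.4% had an unadjusted p under 0.05. From 8 to 16 HPI Iars was the 1 member called, lower, beside 7.25% of all tested genes higher and 8.1% lower. From 16 to 24 HPI 5 members fell, Aars, Iars, Rars, Tars and Mars2, and none rose, beside 3.65% of all tested genes higher and 6.19% lower. In that last step 17 of the 19 cytosolic genes had a negative value, with a median of -0.06, whereas 11 of the 17 mitochondrial genes had a positive one, with a median of 0.06. This step shares its 16 HPI libraries with the comparison of 16 HPI with control.

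Over the whole course, tested at once across the 6 groups, 6 of 19 cytosolic genes varied (Aars, Iars, Mars, Rars, Sars and Tars) and 1 of 17 mitochondrial genes did (Mars2). That was 31.6% and 5.88% of the sets, and 30.4% of all tested genes varied. The cytosolic share was therefore near that of genes in general. Of the genes named above for peripheral neuropathy, Aars passed the test over the course (adjusted p = 0.0113). Gars, Yars, Hars and Wars did not, with adjusted p of 0.462, 0.13, 0.136 and 0.347. Gars had log2 fold changes of 0.10, 0.05 and 0.02 at 8, 16 and 24 HPI, with 95% intervals within -0.08 to 0.20.

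The 7 members of the multisynthetase complex (Dars, Iars, Kars, Lars, Mars, Qars and Rars) were set beside the 12 other cytosolic genes, a grouping chosen after the values were seen. The complex held 1 gene called higher at 8 HPI and 1 at 16 HPI, both times Rars, and 2 called lower at 24 HPI, Iars and Mars. The other cytosolic genes held 2 higher at 8 HPI, 3 higher at 16 HPI, and 1 higher and 1 lower at 24 HPI. At 8 HPI that was 14.3% and 16.7% higher, beside 3.83% of all tested genes, and at 16 HPI 14.3% and 25.0%, beside 10.6%. At 24 HPI 28.6% and 8.33% were lower, beside 9.07% of all tested genes, and 0% and 8.33% higher, beside 6.05%. These shares rest on 3 genes or fewer, and the difference between the groups was not tested. The medians of the log2 fold changes at 8 HPI were 0.09 and 0.10. Subunits of the complex included both the widest rise and the lowest fall. Of its 3 scaffold genes, Aimp1 and Eef1e1 rose at 24 HPI, by 0.17 ± 0.06 and 0.22 ± 0.06 on the log2 scale (adjusted p = 0.0489 and 0.0144), and Aimp2 had -0.06 there.

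Eprs, the cytosolic glutamyl-prolyl enzyme of the same complex, is missed by the symbol pattern and is given apart from the members. It had 420, 499 and 495 CPM in control and 468, 524 and 538 CPM at 8 HPI, a log2 fold change of 0.12 ± 0.04 (adjusted p = 0.116). At 16 and 24 HPI its log2 fold changes were 0.01 and -0.02. Lars2 had 75.1, 27.0 and 25.3 CPM in control but 4490, 4523 and 54.4 CPM at 16 HPI and 1035 CPM in 3 HPI replicate 3. Its replicates at 16 HPI differed far beyond the range of any member.

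Genes that supply amino acids and relay their shortage were examined next to the synthetases. In the integrated stress response, kinases such as Eif2ak3 (PERK) slow translation while ATF4 switches on genes for amino acid supply. Of the 15 tested regulators of this response, 11 rose and 0 fell at 8 HPI, with a median log2 fold change of 0.62. That was 73.3% higher, beside 3.83% of all tested genes higher and 3.96% lower. At that time Atf3 had 2.29 ± 0.30, Ddit3 1.062 ± 0.14, Ppp1r15a 0.89 ± 0.17 and Cebpb 0.77 ± 0.17 (adjusted p = 0.00149, 0.000893, 0.00947 and 0.00805). The gene of ATF4 itself rose by 0.21 ± 0.05 on the log2 scale (adjusted p = 0.0188). At 16 HPI 8 regulators rose and 0 fell, with a median of 0.28, beside 10.6% of all tested genes higher and 11.5% lower. At 24 HPI 2 were higher, Atf3 and Eif2ak2, and 3 were lower, Atf4, Chac1 and Ppp1r15b, with a median of -0.07 and Atf4 at -0.30 ± 0.05 (adjusted p = 0.000473). The synthetase genes that rose at 8 HPI did so by 0.22 or less on the log2 scale, a fraction of the change of most regulators at that time.

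Of 13 tested enzymes of amino acid and one-carbon synthesis, 5 rose at 8 HPI and 0 fell. That was 38.5% higher, beside 3.83% of all tested genes higher and 3.96% lower. Psph, which makes serine, had 0.39 ± 0.07, Cth, which makes cysteine, 0.30 ± 0.08, Aldh18a1, of proline synthesis, 0.18 ± 0.05 and the mitochondrial serine enzyme Shmt2 0.18 ± 0.05 (adjusted p = 0.000806, 0.0304, 0.0354 and 0.0361). Asparagine synthetase, Asns, had 0.07 ± 0.05 (adjusted p = 0.506). At 16 HPI Mthfd1l was called, higher, and at 24 HPI Aldh18a1, lower at -0.26 ± 0.05 (adjusted p = 0.00128). Each was 7.69% of the enzymes, beside 10.6% of all tested genes higher at 16 HPI and 9.07% lower at 24 HPI.

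Of 12 tested amino acid transporters, 0 were called at 8 HPI by edgeR. At an unadjusted p under 0.05 there were 4, all higher, beside 10.9% of all tested genes in that direction. Slc38a1 rose at 16 HPI by 0.23 ± 0.06 (adjusted p = 0.00514), where 10.6% of all tested genes were called higher. At 24 HPI 7 of the 12 (58.3%) fell and 0 rose, beside 9.07% of all tested genes lower and 6.05% higher. The cystine carrier Slc7a11 had -0.43 ± 0.06, the glycine carrier Slc6a9 -0.43 ± 0.11, the neutral carrier Slc1a4 -0.35 ± 0.05 and the cationic carrier Slc7a1 -0.34 ± 0.07 (adjusted p = 3.91e-05, 0.0112, 1.26e-05 and 0.00194). Slc7a5 and Slc3a2, the partners of the large neutral carrier, fell by 0.28 and 0.19 on the log2 scale (adjusted p = 0.00364 and 0.013).

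The remaining steps of translation were mixed. Of 6 cytosolic elongation factors, Eef1b2 rose by 0.16 ± 0.05 at 16 HPI and 0.29 ± 0.05 at 24 HPI (adjusted p = 0.0298 and 0.000502), and Eef1a2, the form that mature neurons use, fell by 0.24 at both times (adjusted p = 0.000808 and 0.0014). Of 13 mitochondrial charging and translation factors and 6 editing and other aminoacylation factors, edgeR called 0 at any time against control. At an unadjusted p under 0.05, 1 of the mitochondrial factors was reached at 16 HPI and 1 at 24 HPI, and of the editing list, which includes Eprs, 1 gene at 1 HPI, 1 at 3 HPI (Dtd1 both times, with a log2 fold change of 0.26) and 3 at 8 HPI. Of the 13771 tested genes, 1756, 1956, 3003, 4604 and 3910 reached it at 1, 3, 8, 16 and 24 HPI. Called higher were 10.6% and 6.05% of all tested genes at 16 and 24 HPI, and lower 11.5% and 9.07%.

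**Figure D5:**
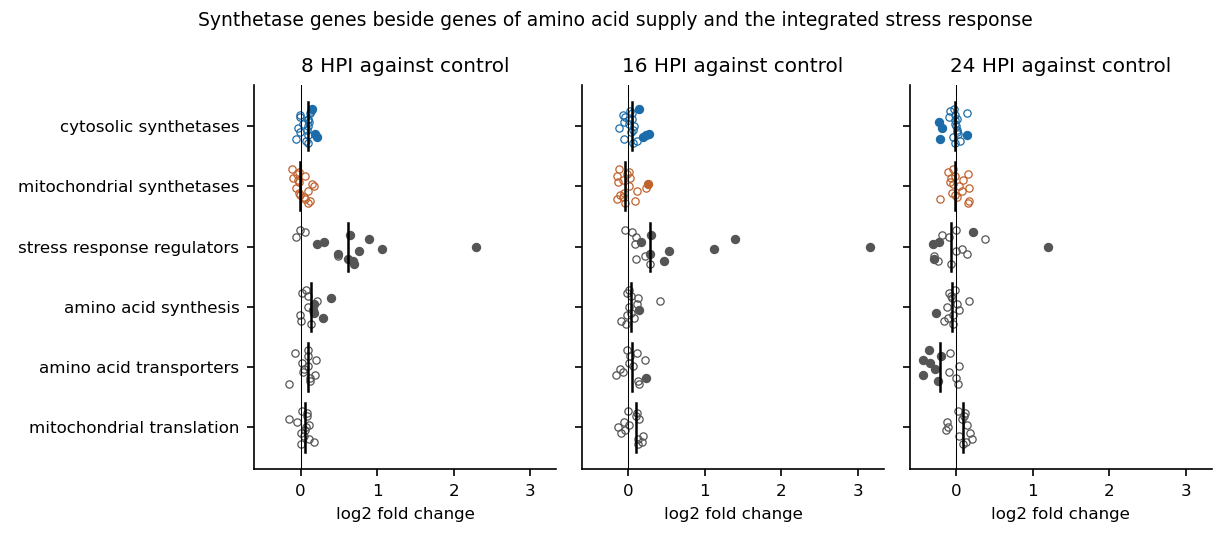
Log2 fold change against control at 8, 16 and 24 HPI for the cytosolic and mitochondrial synthetase genes and for 4 lists of related genes, with a point for each gene, filled where the adjusted p is under 0.05, and a bar at the median of the list. The stress response regulators spread up to 2.29 at 8 HPI and 3.16 at 16 HPI, the synthetase genes stay between -0.23 and 0.26, and the transporters have 7 filled points below 0 at 24 HPI.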

How the data were processed

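Sequencing covered 18 libraries of eDRG spot cultures in 6 groups of 3. The authors deposited raw counts per gene, 1 table per library, without normalization. The aligner and counter given in the methods are STAR and featureCounts, with GENCODE vM20. The submitters' processing notes list FastQC, STAR, HTSeq, DESeq2 and mm10, and the 5 closing entries of each table, left out of library sizes, are named as htseq-count names them. The labels name Ribo-Zero Gold depletion and SMARTer cDNA. Nothing states whether counting used strand, so reads shared with a gene on the opposite strand cannot be assigned with certainty, which applies among others to Iars2, Farsb, Fars2, Vars2, Hars, Cars2, Hars2, Nars2 and Cars. The limit of detection of 3 counts came to between 0.13 and 0.316 CPM before scaling and covers counting error only.

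Symbols, positions and exon lengths came from GENCODE vM21 on GRCm38, which matched 47224 identifiers. The filter of 1 CPM left 13771 genes, which were fitted jointly over all libraries in R 4.3.3 with edgeR 4.0.16 (TMM, quasi-likelihood test, two-sided), with time point and replicate number as terms, since the study corrected for batch. CPM and RPKM are over TMM-scaled library sizes. Shares of variance came from log2 CPM with a prior count of 2. Python 3.11.15 with pandas 2.3.3 and matplotlib 3.10.9 made the summaries and plots. The method was tested on simulated data whose planted changes were larger than any synthetase change here, so that test does not cover changes of this size. All time points share the same 3 control libraries.

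The members, the lists of related genes and the tests were chosen with earlier results of these data known. Values by sample are given for up to 5 higher and 3 lower members per time point, from those called at 8, 16 or 24 HPI with 1 direction over the batches, and ranges for their partners in the other compartment. Each member but 1, which enters the counts and sums but is not reported here by name, is given with its level, and each related list with up to 4 genes called at 16 or 24 HPI. Genes named at an unadjusted p, the regulators and enzymes at 8 HPI, Asns, Aimp2, Slc7a5, Slc3a2 and the neuropathy genes were chosen after their values were seen. Of 16 regulators listed, 15 were found. Alternatives were the DESeq2 1.42.0 Wald test, its size factors in edgeR, a filter of 10 counts in total or of 1 CPM in every library, no replicate block, the compared groups alone, residual rRNA and mitochondrial genes left out, Tarsl2 counted as cytosolic, log2 ratios without a prior count, and each library left out.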

Additional observations from a re-analysis of the deposited data

How the results depend on the processing

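None of the 18 single-gene calls changed direction in any of the 25 alternatives, and Mars2 at 16 HPI against control, and from 16 to 24 HPI, passed the threshold in all of them. The batch mattered most. With no replicate block, the cytosolic calls went from 3 to 0 at 8 HPI, from 4 to 0 at 16 HPI, from 4 to 0 at 24 HPI and from 6 to 1 over the time course. Calls among all members went from 1 to 0 between 8 and 16 HPI and from 5 to 1, that of Mars2, between 16 and 24 HPI, while log2 fold changes stayed close (Rars at 16 HPI 0.26, adjusted p = 0.157). With only the groups compared in the fit, 1 cytosolic gene was called at 8 HPI. Between 8 and 16 HPI, 2 members were called by the DESeq2 Wald test, with over 1 CPM required in all 18 libraries, and with residual rRNA and mitochondrial genes left out, in each case through Sars (higher), and 0 with a filter of 10 counts in total. That last filter moved the mitochondrial median at 24 HPI from -0.02 to -0.0013.

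With each library left out in turn, cytosolic calls ran from 1 to 3 at 8 HPI, where leaving out control replicate 1 or 8 HPI replicate 3 left 1. They ran from 1 to 4 at 24 HPI, where 24 HPI replicate 1 left 1, and any control replicate or 24 HPI replicate 2 left 2. Mitochondrial calls at 24 HPI ran from 0 to 1 (Vars2, lower, without control replicate 2). Calls from 8 to 16 HPI ran from 0 to 2, with 0 without 8 HPI replicate 1 or 2 or 16 HPI replicate 2 and 2 without 8 HPI replicate 3. Calls from 16 to 24 HPI ran from 3 to 6, with 3 without 16 HPI replicate 1. Mitochondrial genes over the course ran from 1 to 2 (Vars2 without control replicate 2 or 8 HPI replicate 3, Hars2 without 8 HPI replicate 2). The median log2 fold change ran from 0.0181 to 0.0569 for the mitochondrial genes at 3 HPI, from 0.0668 to 0.106 for the cytosolic genes at 8 HPI and from -0.0268 to 0.0270 for the mitochondrial genes at 24 HPI. The cause of these shifts was not tested. Counted over the 18 calls and their 25 alternatives, the threshold was passed 393 times and missed 57 times.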
